A study of Mus musculus with 8 samples.

Results

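The genes described here are 36 genes of the hypoxia response and of glycolysis, taken by name from knowledge of the pathway: the subunits of the hypoxia-inducible factors (HIF), the enzymes and the ligase component that control their turnover, known HIF target genes, the glycolytic enzymes and the regulators of glycolytic flux. A gene was a member if the accession of at least 1 array probe mapped to its symbol. The rule uses no expression value, but the members were chosen with earlier results of these data known. All 36 were on the array, among 20887 named genes. Of these, 34 were bright enough to be tested, among 13974 tested genes. Epo, which encodes the hormone erythropoietin, and Mxi1, which encodes a MYC antagonist, were the other two members; their probes were well above background in red on 1 of 8 arrays only, that of WT1, so neither was given a fold.

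Expression was measured in pairs of whole kidneys from C57BL/6 mouse embryos at embryonic day 16.5. There were 4 wildtype samples (WT1 to WT4) and 4 in which Dot1, taken here as the histone H3 lysine methyltransferase gene Dot1l, was knocked out conditionally in Six2-positive nephron progenitor cells (KO1 to KO4; DOT1-null in the labels). The design text calls them biological replicates; the Cre driver, the floxed allele and the litters were not given in the sources used here, and no treatment was given to either group. The deletion concerns 1 lineage of an organ that also holds stroma, vessels, collecting duct and blood cells. In such bulk samples, fewer cells of a type and less RNA per cell cannot be told apart.

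Each array held sample RNA in red (Cy5) and RNA of the WT1 kidneys in green (Cy3). Values below are log2 ratios, sample over WT1 reference, unless another scale is named, and every difference is KO minus WT on the log2 scale. The WT1 array set WT1 against itself. The red negative-control median was 1361 units for WT1, 478.25 for KO1 and 58 to 61 for the other 6 arrays. Green held the same RNA on every array. The median correlation of its signal with those 6 arrays was 0.559 for WT1, 0.904 for KO1 and 0.997 for each of the 6. The WT1 array, and less so KO1, thus differed from the rest in signal. All WT arrays lay in one row of the slide and all KO arrays in the other, so row and group cannot be told apart. By Xist and Y-linked probes, WT2 and all 4 KO embryos were male, and WT1, WT3 and WT4 were female. The Dot1l probe differed by 0.03 ± 0.08 (SE; adjusted p = 0.924, limma), and where it lies relative to the deleted part was not analysed here. Cited1, a marker of the youngest nephron progenitors, fell by 2.72 ± 0.10 (limma adjusted p = 2.85e-08). Six2 itself differed by -0.21 ± 0.12 and did not pass (limma adjusted p = 0.439). Markers of the labelled organ were measurable, with all 8 nephron progenitor, all 8 podocyte and all 10 proximal tubule markers bright enough to be tested.

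HIF is a pair of an oxygen-regulated alpha subunit (Hif1a, Epas1) and a stable partner (Arnt). When oxygen is plentiful, the prolyl hydroxylases Egln1 and Egln3 mark the alpha subunit, and the Vhl ubiquitin ligase then sends it for destruction; when oxygen is short, HIF accumulates, binds the core letters ACGTG or GCGTG near its targets and raises glucose uptake, glycolysis and vessel growth. The embryonic kidney grows in low oxygen. Nephron progenitors are known for high glycolytic flux, whereas proximal tubule cells make glucose rather than burn it. HIF activity is controlled mainly at the protein level, which these arrays did not measure.

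The promoter sequences of 33 of the 36 genes were at hand (RefSeq, GRCm38.p6, 45 start sites), those other than Ndrg1, Slc2a3 and Epas1. Within the 250 bases before the start, ACGTG or GCGTG on either strand, overlapping matches counted apart, occurred in 37 of the 45 windows (82.2%) and in 38.6% of all 32851 windows of that length. Some windows of a gene overlapped (Aldoa and Eno1). By gene, 30 of 33 members and 41.5% of all genes had a match. The members include known HIF targets, and the windows were not matched for base composition. The windows of 5 members are shown because the results turn on them: Ddit4, the single member that passed the test; P4ha2, Vhl and Pgam1, whose KO arrays, like those of Ddit4, all lay above the WT arrays; and Car9, whose KO arrays all lay below. Each is written 5' to 3' on the gene's strand and ends at the base before the start, with matches in capitals, CACGT and CACGC being the same letters read on the other strand. The Ddit4 window (chr10:59951771-59952020, minus strand) held 2 matches, the P4ha2 window (chr11:54100674-54100923, plus strand) 3, the Car9 window (chr4:43506776-43507025, plus strand) 1, and the Vhl window (chr6:113623744-113623993, plus strand) 0. The Pgam1 window (chr19:41911621-41911870, plus strand) held 3.
Ddit4: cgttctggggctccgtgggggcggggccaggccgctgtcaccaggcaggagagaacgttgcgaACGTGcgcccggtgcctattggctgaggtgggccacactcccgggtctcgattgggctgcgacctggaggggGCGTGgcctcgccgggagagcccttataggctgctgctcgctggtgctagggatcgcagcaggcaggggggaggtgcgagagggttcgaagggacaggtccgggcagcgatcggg
P4ha2: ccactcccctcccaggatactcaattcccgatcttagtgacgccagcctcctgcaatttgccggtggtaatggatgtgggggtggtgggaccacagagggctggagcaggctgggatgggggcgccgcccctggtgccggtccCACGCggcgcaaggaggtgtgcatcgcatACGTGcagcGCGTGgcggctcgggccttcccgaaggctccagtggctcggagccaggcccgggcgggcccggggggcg
Car9: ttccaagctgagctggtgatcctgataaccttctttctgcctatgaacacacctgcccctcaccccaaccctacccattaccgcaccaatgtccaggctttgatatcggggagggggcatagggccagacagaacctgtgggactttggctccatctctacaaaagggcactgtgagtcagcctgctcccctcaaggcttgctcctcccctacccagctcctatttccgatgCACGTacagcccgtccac
Vhl: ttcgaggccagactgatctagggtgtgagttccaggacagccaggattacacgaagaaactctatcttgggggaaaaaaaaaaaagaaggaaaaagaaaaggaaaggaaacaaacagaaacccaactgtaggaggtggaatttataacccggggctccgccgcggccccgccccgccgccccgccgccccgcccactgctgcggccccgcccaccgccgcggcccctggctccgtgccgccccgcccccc
Pgam1: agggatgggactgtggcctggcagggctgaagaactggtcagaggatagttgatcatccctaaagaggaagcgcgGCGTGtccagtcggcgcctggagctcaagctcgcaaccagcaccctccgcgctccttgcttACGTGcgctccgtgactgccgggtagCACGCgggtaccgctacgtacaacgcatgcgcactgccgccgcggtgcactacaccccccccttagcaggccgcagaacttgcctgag
A match is a description of the letters and not a bound site, and windows without a match hold none in these 250 bases only.

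The main comparison asked which of these genes differed between KO and WT kidneys. In limma's fit over all 13974 genes (Benjamini-Hochberg adjusted p under 0.05), Ddit4 rose and no other member passed. That is 1 of 34 higher and 0 of 34 lower, where 1.57% of all tested genes were higher and 0.544% lower (2.11% in all). At an unadjusted p under 0.05, 6 members were higher and 1 lower, that is 7 of 34, against 11.1%, 3.38% and, in either direction, 14.5% of all genes. The KO arrays all lay above the WT arrays for 5 members (Ddit4, Ndrg1, P4ha2, Vhl and Pgam1) and all below for 1 (Car9), against 6.81% and 2.45% of all genes (9.26% in either direction). The differences of 24 members were above 0 and those of 10 below, with 59.3% of all genes above 0. The median difference was 0.08 (all genes 0.03), and the median size regardless of sign was 0.10 for the members and 0.10 for all genes.

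**Figure D1:**
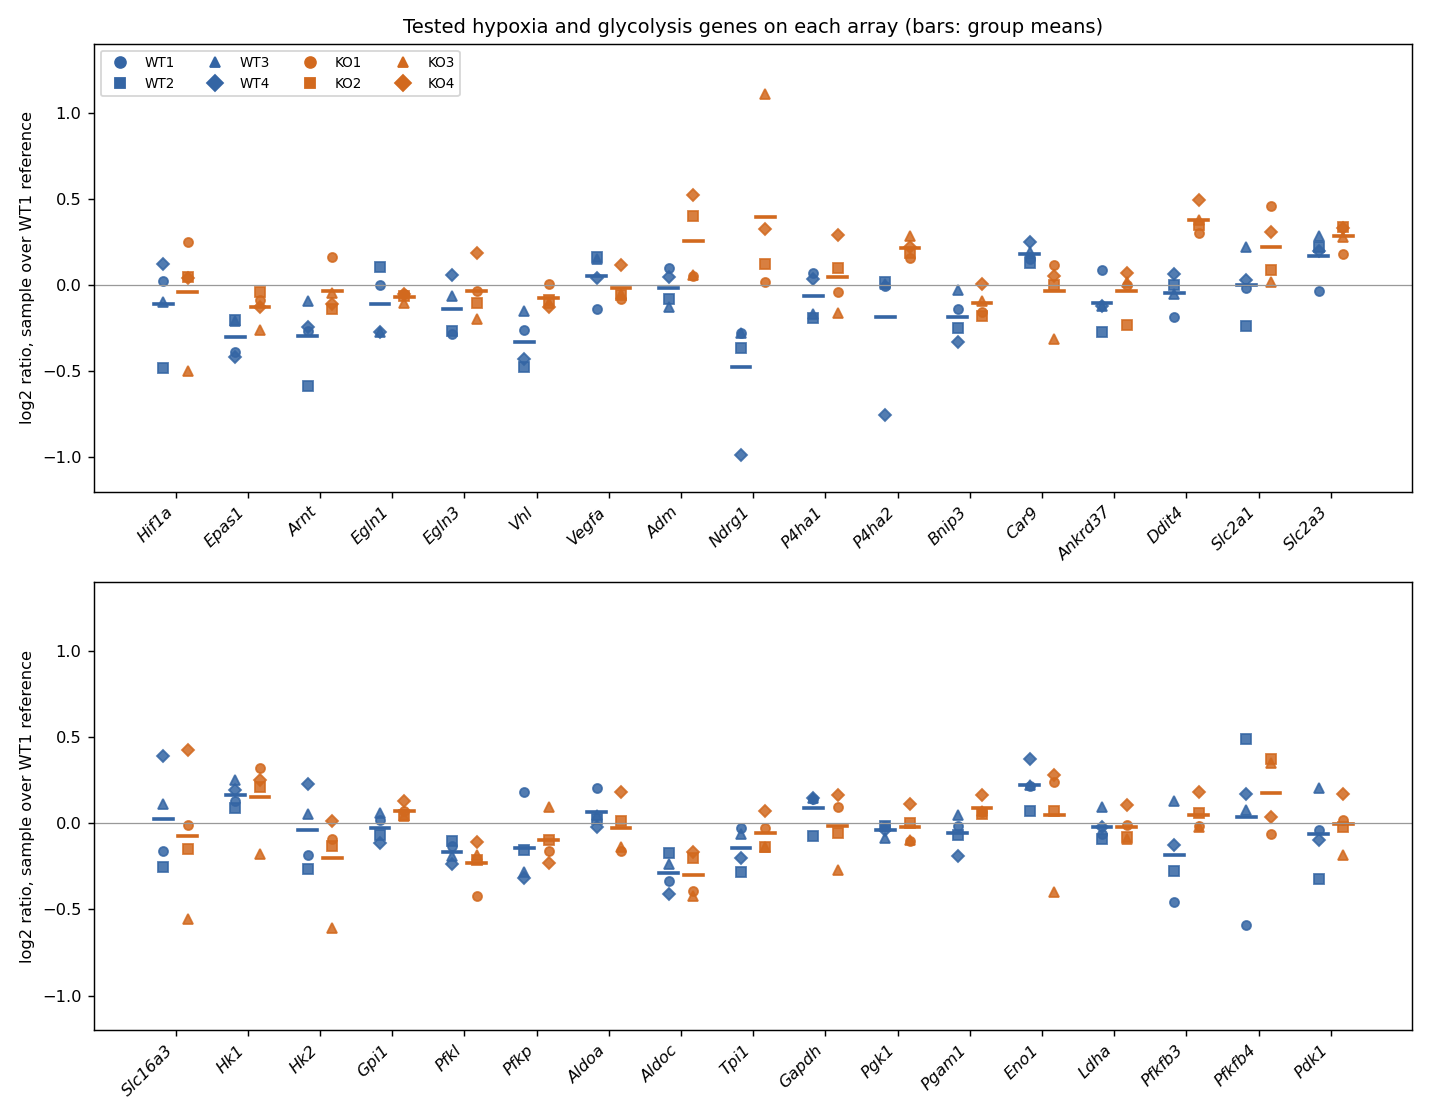
Log2 ratio of each sample over the WT1 reference for the 34 tested members, 1 point per array (WT blue, KO orange, shapes for replicate numbers) and bars for group means. Most genes show overlapping groups; KO3 stands high for Ndrg1 and low for Hif1a, Hk2, Slc16a3 and Eno1, and WT4 stands low for Ndrg1 and P4ha2.

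Of the HIF subunits, none passed the test. Hif1a, the subunit that responds to acute hypoxia, had ratios of 0.02, -0.48, -0.10 and 0.12 on WT1 to WT4 and of 0.25, 0.05, -0.50 and 0.04 on KO1 to KO4. The groups overlapped throughout, with WT2 and KO3 low, and the difference was 0.07 ± 0.16 (SE, n = 4 per group; adjusted p = 0.907 in the limma fit). Epas1, the alpha subunit of endothelium and interstitium, gave -0.39, -0.21, -0.21 and -0.42 in WT and -0.09, -0.04, -0.26 and -0.13 in KO. Only KO3 reached into the WT range, and the difference was 0.18 ± 0.09 (limma adjusted p = 0.404), but the other probes of Epas1 gave 0.08 and -0.10. Arnt, the shared partner, had the smallest p of the 3 subunits, with -0.27, -0.59, -0.09 and -0.24 in WT and 0.16, -0.14, -0.04 and -0.11 in KO. WT3 lay within the KO range and WT2 far below it. The difference was 0.27 ± 0.11 (limma adjusted p = 0.3), and the other, dimmer Arnt probe gave -0.09.

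The oxygen sensors and Vhl did not pass either. Egln1, the main prolyl hydroxylase, read 0.00, 0.10, -0.27 and -0.27 in WT and -0.05, -0.06, -0.10 and -0.05 in KO, so the KO arrays lay close together within the WT range (difference 0.04 ± 0.10, limma adjusted p = 0.906). The Egln1 red signal was 15047.5 units on WT1, 1357 on KO1 and 149 to 235.5 on the other 6 arrays. Egln3, a hydroxylase gene that is itself a HIF target, read -0.28, -0.27, -0.06 and 0.06 in WT and -0.03, -0.10, -0.20 and 0.18 in KO. These overlapped, with a difference of 0.10 ± 0.11 (limma adjusted p = 0.744) and -0.08 at the other probe. Vhl, the substrate-binding part of the ligase, read -0.26, -0.48, -0.15 and -0.43 in WT and 0.00, -0.08, -0.10 and -0.13 in KO. Its groups were apart, but WT3 and KO4 nearly touched, and the difference of 0.25 ± 0.09 (1.19-fold, limma adjusted p = 0.214) missed the threshold.

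Among the secreted factors, Adm, the vasodilator peptide adrenomedullin, had the smaller p. It read 0.10, -0.08, -0.13 and 0.05 in WT and 0.05, 0.40, 0.06 and 0.52 in KO. KO2 and KO4 lay above every WT array while KO1 and KO3 lay within the WT range, and the difference was 0.27 ± 0.12 (limma adjusted p = 0.302). Vegfa, the main endothelial growth factor, differed by -0.08 ± 0.09 (limma adjusted p = 0.787) and by -0.32 at its other probe. The 10 endothelial markers had a median difference of 0.03 with 0 passing the test.

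Ddit4, which encodes a stress-induced inhibitor of the growth kinase complex mTORC1, was the member with the firmest difference. It read -0.19, -0.00, -0.05 and 0.07 on WT1 to WT4 and 0.30, 0.35, 0.38 and 0.49 on KO1 to KO4. The groups were clearly apart, with a gap between WT4 and KO1 that exceeded the SD of either group (0.11 in WT and 0.08 in KO). Ddit4 thus rose by 0.42 ± 0.09 (1.34-fold, 95% interval 0.23 to 0.61, limma adjusted p = 0.0271). Its red signal was 9970 to 20257 units over the 8 arrays, far above the negative controls. The groups overlapped in this unnormalised signal, at 15071, 11814, 12118 and 19100 units on WT1 to WT4 and 20257, 15844, 9970 and 19539 on KO1 to KO4. The direction held in all 21 alternative settings, at 0.37 to 0.71, but the call was lost in 14 of them. With median centring in place of loess the limma unadjusted p was 0.234 (95% interval -0.34 to 1.28). In red alone over 8 arrays the limma adjusted p was 0.889. Adjusted p was 0.345 with a sex term and 0.0614 without WT1 and KO1. It lay between 0.0556 and 0.12 without any 1 of WT1, WT2, WT3, KO2, KO3 and KO4, and stayed under the threshold without WT4 (0.0475) or KO1 (0.0344).

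Ndrg1, a cytoplasmic protein gene induced by hypoxia and by epithelial differentiation, had the largest difference of the members. It read -0.28, -0.36, -0.28 and -0.99 in WT and 0.02, 0.12, 1.11 and 0.32 in KO. The groups were apart, and both ends of the range were single arrays, WT4 at the bottom and KO3 at the top. The difference was 0.87 ± 0.22 (1.83-fold, 95% interval 0.39 to 1.35), with a limma adjusted p of 0.0679. With the replicate number as a block, adjusted p was 0.0209, and without KO1 it was 0.0421. Without WT4 and KO3 together the difference was 0.46 (adjusted p = 0.0853), the lowest of the alternatives. In unnormalised red signal, WT2 to WT4 gave 4408, 4608.5 and 4619.5 units and KO2 to KO4 7057, 7988.5 and 8931.5 units. WT1 gave 13278 units, above every KO array, and KO1 gave 9668.5 units, so the groups overlapped in this signal. The red negative-control medians of WT1 and KO1 were also above those of the other arrays, at 1361 and 478.25 units.

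P4ha2 and P4ha1 encode catalytic subunits of collagen prolyl hydroxylase, the enzyme that stabilises the collagen helix. P4ha2 read -0.00, 0.02, 0.01 and -0.75 in WT and 0.16, 0.19, 0.29 and 0.22 in KO. Apart from WT4, each group was tight and the groups did not overlap. The difference was 0.40 ± 0.15 (limma adjusted p = 0.242) and 0.21 without WT4. P4ha1 differed by 0.11 ± 0.11 (limma adjusted p = 0.728), and its 2 probes gave 0.06 and 0.11.

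Car9, a cell-surface carbonic anhydrase and one of the most HIF-specific targets, was the member whose KO arrays all lay lower. It read 0.15, 0.13, 0.19 and 0.25 in WT and 0.12, -0.00, -0.31 and 0.05 in KO. KO1 and WT2 nearly touched. The difference was -0.22 ± 0.10 (limma adjusted p = 0.344). The probe was dim, well above background in red on 6 of 8 arrays, and the size of its difference moved with the processing: it was -0.13 without KO3, -0.31 with a normexp offset of 16 and -0.47 with the scanner software's ratios (unadjusted p = 0.0267, adjusted p = 0.285, limma). Bnip3, a mitophagy receptor (0.08), and Ankrd37, an ankyrin-repeat protein (0.07), had adjusted p of 0.756 and 0.824 in the same limma fit, and the other probes of Bnip3 gave 0.26 and -0.00.

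**Figure D2:**
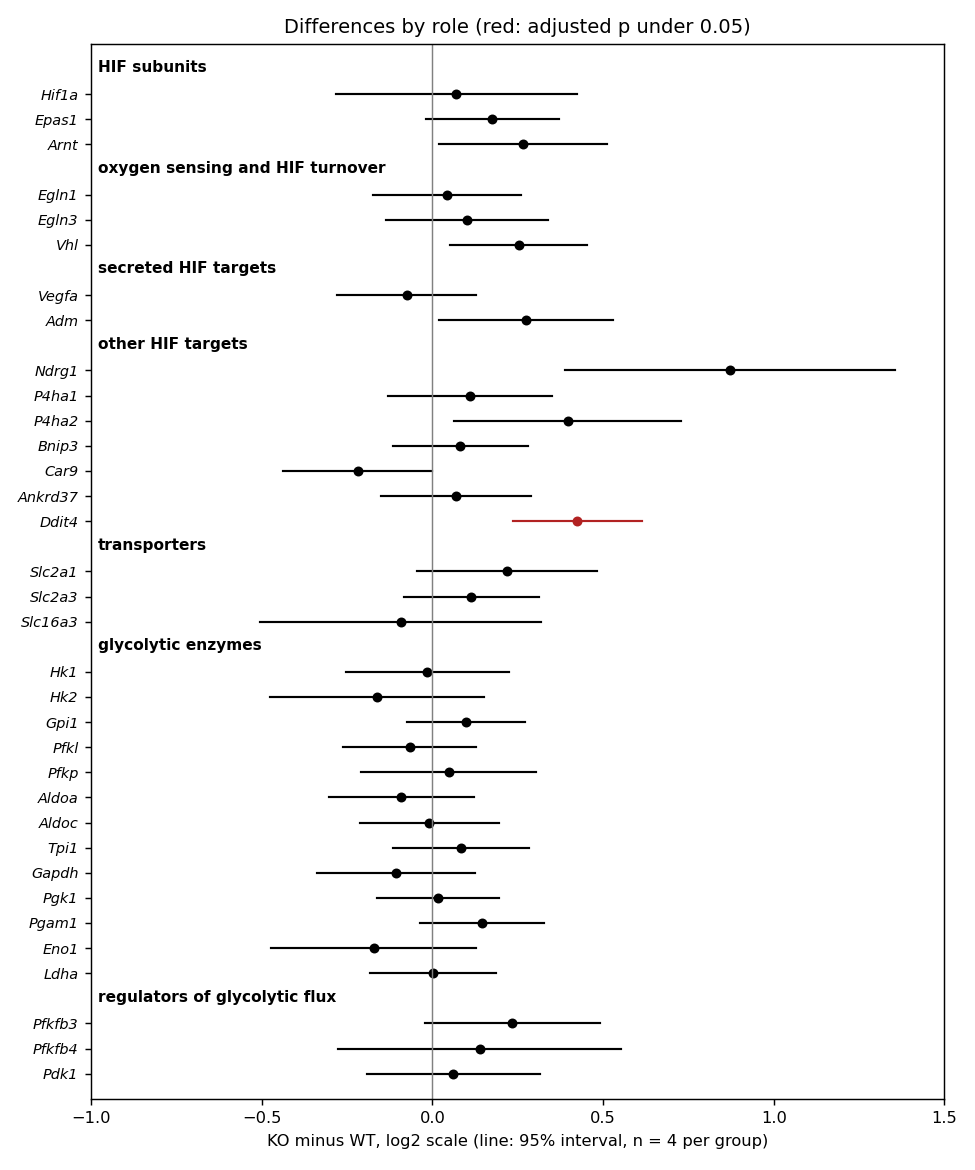
KO minus WT difference (log2) of the 34 tested members with 95% intervals from the limma fit, n = 4 per group, ordered by role. Ddit4 is the member past the threshold; Ndrg1 is the farthest from 0 with the widest interval, and the glycolytic enzymes lie between -0.17 and 0.14.

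None of the 3 transporters passed. Slc2a1, the basal glucose importer, had the smallest p, with -0.02, -0.24, 0.22 and 0.03 in WT and 0.46, 0.09, 0.02 and 0.31 in KO. WT3 and WT4 lay within the KO range (0.22 ± 0.12, limma adjusted p = 0.448). Slc2a3, a high-affinity glucose importer, differed by 0.11 ± 0.09, and the lactate exporter Slc16a3 by -0.09 ± 0.19, the widest spread after Ndrg1 and Pfkfb4, with KO3 at -0.55 and KO4 at 0.43 and with -0.08 at its other probe.

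The glycolytic enzymes gave differences on both sides of 0. Of the 13, 6 were above 0 and 7 below, 0 passed the test and 0 had an unadjusted p under 0.05. Their median was -0.01 and their range -0.17 to 0.14. The 95% interval lay within 1.5-fold in either direction for all 13, and within 1.2-fold for 5. From the top of the pathway downwards the differences were as follows. The hexokinases Hk1 and Hk2, which trap glucose, gave -0.02 ± 0.11 and -0.16 ± 0.14, with -0.10 at the other Hk1 probe and -0.03 for Hk2 without KO3. Gpi1, the isomerase, gave 0.10 ± 0.08, and its 3 probes lay between 0.10 and 0.13. The phosphofructokinases Pfkl and Pfkp, at the committed step, gave -0.07 ± 0.09 and 0.05 ± 0.12, with -0.11 at the other Pfkp probe. The order of signs was thus mixed within the first steps.

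In the lower pathway the aldolases Aldoa and Aldoc gave -0.09 ± 0.10 and -0.01 ± 0.09, and the isomerase Tpi1 0.08 ± 0.09, with 0.01 at its other probe. Pgk1, the first ATP-yielding kinase, gave 0.02 ± 0.08, the enolase Eno1 -0.17 ± 0.14 and the lactate dehydrogenase Ldha 0.00 ± 0.08. Eno1 was low on KO3 alone (-0.40, the other KO arrays at 0.24, 0.07 and 0.28), and its difference was -0.02 without that array. The 95% interval for Ldha ran from -0.18 to 0.19, but its other probes gave -0.17 and -0.14. Pgam1, the mutase, was the enzyme with the smallest p. It read -0.01, -0.07, 0.05 and -0.19 in WT and 0.07, 0.05, 0.07 and 0.16 in KO. WT3 and KO2 differed in the third decimal only, and the difference was 0.14 ± 0.08 (limma adjusted p = 0.468). Gapdh, the glyceraldehyde phosphate dehydrogenase that is often used as a reference gene, had 7 kept probes, whose differences all lay below 0, from -0.21 to -0.10. For 2 of them the KO arrays all lay below the WT arrays. That held for 2.45% of all tested genes, and the share over all probes was not computed. Its brightest probe gave -0.11 ± 0.11 (limma adjusted p = 0.721), and its sign turned with median centring, with a sex term and in red alone. Without KO3 its difference was -0.02 and without KO4 -0.17. Gapdh, Pgk1, Tpi1, Pgam1, Aldoa, Ldha and Eno1 have closely similar pseudogene copies, so signal of these probes may be shared and their values are uncertain.

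Regulators of flux gave small positive values. Pfkfb3, which makes the sugar bisphosphate that activates phosphofructokinase, had the smallest p: -0.46, -0.28, 0.13 and -0.13 in WT and -0.01, 0.06, -0.02 and 0.18 in KO. WT3 lay within the KO range, and WT1 was the lowest array (0.23 ± 0.12, limma adjusted p = 0.4). The WT1 array held the same RNA in both colours, so its -0.46 is no difference between kidneys. Without WT1 the Pfkfb3 difference was 0.14. Its relative Pfkfb4 differed by 0.14 ± 0.19, and by -0.07 without WT1. Pdk1, a kinase that inhibits pyruvate dehydrogenase, differed by 0.06 ± 0.12.

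Single arrays were the extremes of their group for many of the genes. KO4 was the highest KO array for 21 of the 34 members and for 11 of the 13 glycolytic enzymes, and KO3 the lowest for 17 and 7. Among WT arrays WT2 was the lowest for 15 members and WT4 for 10. The array medians over the members were -0.03, -0.13, -0.01 and -0.03 for WT1 to WT4 and -0.01, -0.01, -0.10 and 0.12 for KO1 to KO4. The member medians overlapped between the groups. Over all tested genes the array medians were -0.07, -0.00, 0.01 and 0.01 for WT1 to WT4 and -0.00, 0.03, 0.01 and 0.03 for KO1 to KO4. Counts of extreme arrays, here and below, were not made over all tested genes. Whether they are particular to the genes named was not tested.

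Markers of other cell types also differed by array. The 10 proximal tubule markers had medians of -0.04, -0.30, -0.20 and -0.79 on WT1 to WT4 and of -0.12, -0.11, 0.65 and 0.14 on KO1 to KO4, with 0 of 10 passing the test. Their summed red signal was 31026 to 43988 units in WT and 41989 to 83347 in KO. This sum was rebuilt from the loess ratios and quantile-normalised average intensities, so it is not the unnormalised red signal given for single genes. WT4 was the lowest WT array and KO3 the highest KO array for all 10, as they were for Ndrg1 and P4ha2. All 10 were bright enough to be tested. For Ddit4 WT4 was instead the highest WT array and KO3 was not the highest KO array. Of the 9 stroma markers 5 rose (median 0.53), with array medians of -0.14 to 0.01 in WT and 0.21 to 0.51 in KO. These medians separated the groups, as did the ratios of Ddit4 and P4ha2. The summed red signal of the stroma markers, normalised in the same way, was 47217 to 57497 units in WT and 68035 to 73689 in KO. Of the 6 macrophage markers tested 4 rose (median 0.49). Of the 8 nephron progenitor markers 3 fell (Cited1, Traf1 and Itga8), with a list median of -0.29. The differences of 2 of the 8 were above 0, those of Crym (0.23) and Eya1 (0.21). The part of these cell types in the differences of Ddit4, Ndrg1 and P4ha2 was not tested.

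**Figure D3:**
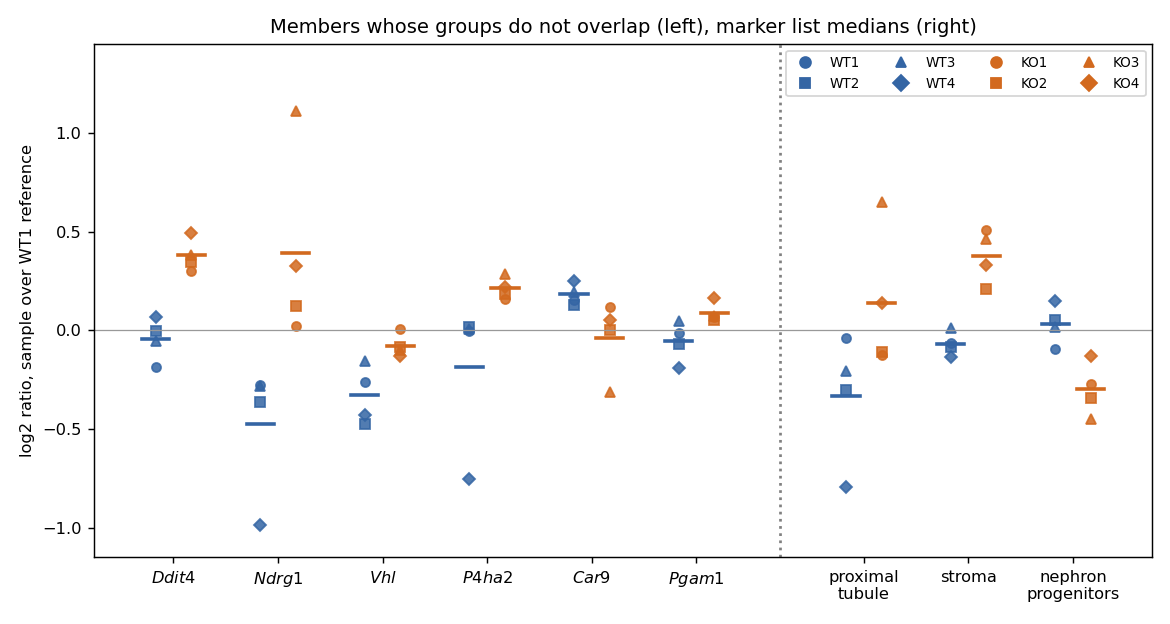
Log2 ratios by array for the 6 members whose groups do not overlap (left) and array medians of 3 marker lists (right), bars being group means. WT4 is lowest and KO3 highest for Ndrg1 and for the proximal tubule markers, while Ddit4 and the stroma markers separate the groups on every array.

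The colours were also read apart on the 6 arrays other than WT1 and KO1, each quantile normalised. Because green held the same WT1 RNA on each array, a green difference is none between kidneys. In red, Ndrg1 differed by 1.10 and Ddit4 by 0.37, with green differences of 0.04 and -0.03, so these ratio differences lay in the sample colour. P4ha2 differed by 0.33 in red and -0.12 in green, against a ratio difference of 0.47 on these arrays. For Vhl the red difference was -0.04 and the green one -0.24, and for Arnt -0.08 and -0.24. Their ratios of 0.25 and 0.21 on these arrays thus came with no rise in red. Whether both colours of a spot shifted together, which a ratio would correct, was not tested for any of these genes. Pgam1 differed by 0.07 in red and -0.09 in green, green being the larger, against a ratio of 0.17. Car9 differed by -0.18 in red, with overlapping groups, and by 0.12 in green, with the groups apart, against a ratio of -0.28. The brightest Gapdh probe differed by 0.01 in red and 0.12 in green, against a ratio of -0.13. The colours of the other Gapdh probes were not read apart. Eno1 differed by -0.10 in red and 0.15 in green, green being the larger, against a ratio of -0.24. Green was the larger of the 2 differences for 12 of 34 members and for 28.1% of all genes. Hk2 was lower in red on all 3 KO arrays (-0.47) and by -0.14 in green, against a ratio of -0.25. Red groups were also apart, upwards, for Ndrg1, Ddit4, P4ha2, Slc2a3 (0.16) and Pfkp (0.30, with 0.11 in green, also apart). The share of all genes apart in red was not computed. In green the groups were apart for 8 of 34 members and 23.6% of all genes.

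**Figure D4:**
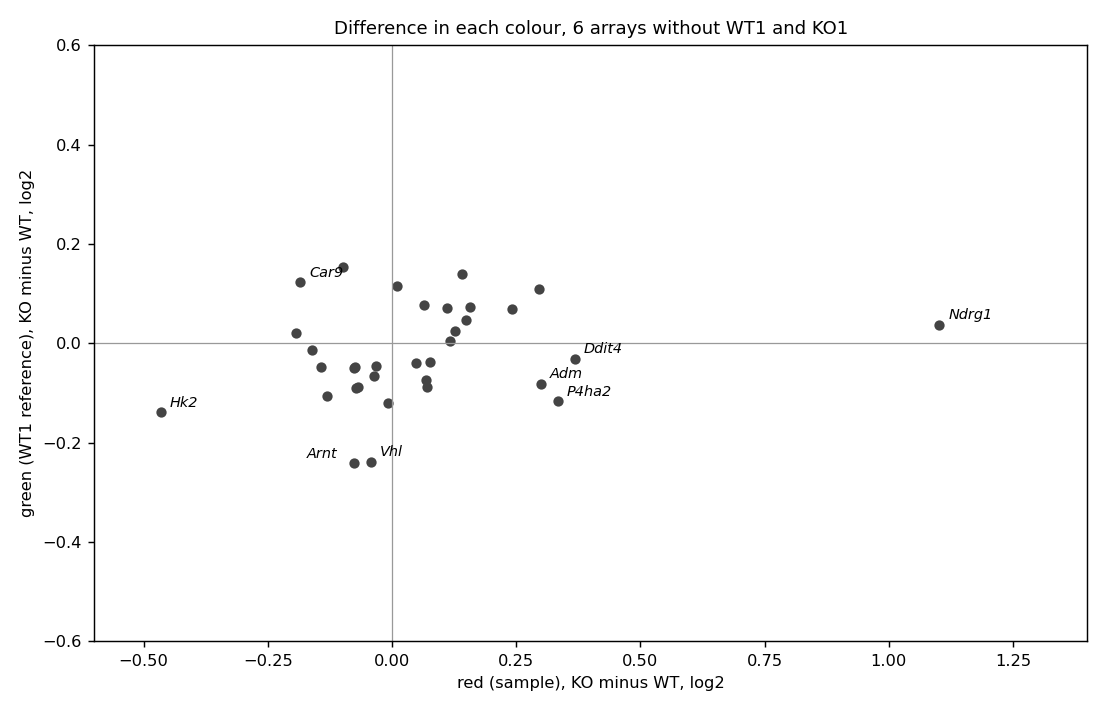
Difference between KO and WT (log2) in the sample colour, horizontal, against that in the reference colour, vertical, for the 34 members on 6 arrays, 3 per group. Ndrg1 and Ddit4 lie to the right near 0 in green, and Adm and P4ha2 to the right at -0.08 and -0.12; Vhl and Arnt lie near 0 in red and at -0.24 in green.

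Further genes of the pathway were read as lists. Of 18 tested HIF regulators, 6 of them members, 0 passed, with a median of 0.08. Hif3a, an alpha subunit gene whose short forms restrain HIF in mouse, read -0.10, -0.01, -0.11 and -0.10 in WT and 0.15, 0.27, 0.33 and 0.31 in KO. Its groups were well apart, and the difference of 0.34 ± 0.08 stood just outside the threshold (limma adjusted p = 0.0503). Of 38 other HIF targets 0 passed (median 0.09); the smallest p were those of Trf, the iron carrier transferrin, and of the repressor gene Bhlhe40. Trf read -0.18, 0.30, 0.14 and -0.22 in WT and 0.37, 0.57, 0.67 and 0.20 in KO, with WT2 above KO4 (difference 0.45 ± 0.14, limma adjusted p = 0.128). Bhlhe40 read -0.00, -0.18, 0.04 and 0.16 in WT and 0.17, 0.13, 0.33 and 0.36 in KO, with WT4 above KO2 (0.25 ± 0.10, limma adjusted p = 0.255).

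Among 25 further genes of glycolysis and sugar transport 2 rose and 1 fell, with a median of 0.13. Hkdc1, a hexokinase family member, rose by 0.43 ± 0.10 (limma adjusted p = 0.0408), from -0.10, 0.10, 0.13 and -0.15 in WT to 0.49, 0.54, 0.35 and 0.32 in KO. Gpd1, which links glycolysis to glycerol, rose by 0.46 ± 0.11 (limma adjusted p = 0.0486), from -0.19, -0.35, -0.16 and -0.54 to 0.14, -0.01, 0.15 and 0.33. The groups of both genes were apart. Pgam2, the muscle form of the mutase, fell by 0.63 ± 0.14 (limma adjusted p = 0.0447), from -0.03, -0.53, -0.23 and -0.53 in WT to -0.77, -1.26, -0.74 and -1.05 in KO. Of the 8 muscle markers 4 were tested and 1 passed, higher in KO (Tnnt1, 0.37). The other tested ones gave 0.36 (Tnni1), -0.03 (Eno3) and -0.29 (Actc1, limma adjusted p = 0.245), so their signs were mixed. Myh3, Acta1, Myog and Ckm were too dim to be tested.

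Genes of pyruvate entry and of glucose synthesis completed the set. Of 12 pyruvate genes 1 rose (median 0.07): Pdk4, a kinase that shuts pyruvate dehydrogenase in favour of fat burning, by 0.49 ± 0.10 (limma adjusted p = 0.0248), with -0.13, -0.39, -0.12 and -0.26 in WT and 0.15, 0.18, 0.47 and 0.26 in KO. Of 8 gluconeogenic genes 0 passed, with 7 above 0 and a median of 0.29. Pck1, which catalyses the first committed step of glucose synthesis, read 0.01, -0.21, -0.19 and -0.94 in WT and 0.46, 0.28, 2.11 and 0.99 in KO. WT4 and KO3 were again its extremes (1.30 ± 0.33, limma adjusted p = 0.0679). G6pc, which releases free glucose, read 0.03, -0.51, -0.33 and -0.52 in WT and 0.13, -0.29, 1.24 and 0.94 in KO. KO2 lay within the WT range while KO3 and KO4 lay far above it (0.84 ± 0.27, limma adjusted p = 0.157). In 7 of the 8 genes WT4 was the lowest WT array, and in 5 KO3 was the highest KO array, as in the proximal tubule markers. With the replicate block, 9 genes of these lists passed in place of 4, 8 higher, among them Hif3a, Trf, Hkdc1, Gpd1, Pck1, Pdk4 and Mpc1, and 1 lower, Pgam2. Without WT4, WT2 or KO4 the lists held 0 calls.

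**Figure D5:**
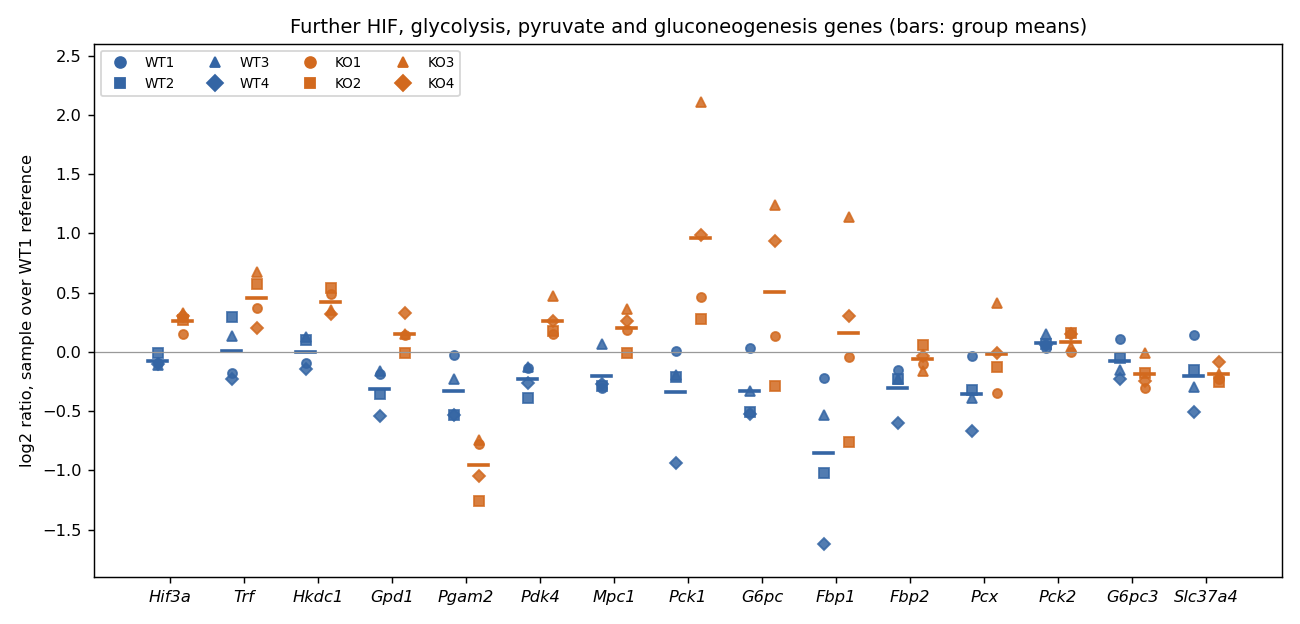
Log2 ratio by array for those genes of the further lists that passed with or without the replicate block and are named in the text, and for all 8 gluconeogenic genes. Bars are group means. Hif3a, Hkdc1, Gpd1, Pdk4 and Pgam2 separate the groups; the wide spread of Pck1, G6pc and Fbp1 runs from WT4 at the bottom to KO3 at the top.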

How the data were processed

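Gene expression was measured on 8 Agilent 2-colour arrays of 1 slide, 4 WT and 4 KO, with groups and numbers from the labels. RNA was linearly amplified before Cy3 or Cy5 labelling, per the labels' protocols. Per the file headers, the deposited scanner output of Agilent Feature Extraction 10.7.3.1 holds linear red and green spot intensity values and local backgrounds, flags of 0 or 1 (other), and log10 ratios that the software background-subtracted and dye-normalized. The deposited series table held the same log10 ratios (within 0.005), with a median of 0 on each array. No spot was saturated.

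Files were read with data.table (version 1.17.8) and fitted with limma 3.58.1 under R 4.3.3. Here normexp (offset 50) was applied to median signals and loess to each array, control spots having weight 0. Outlier readings (1765, or 0.372%) were left out and spots of a probe averaged. Probes well above background in red on at least 4 of 8 arrays were kept, and the brightest kept probe stood for its gene. Symbols came from RefSeq accessions (GRCm38.p6, names and promoters only, another build than the arrays'). The log2 ratios were compared with lmFit and eBayes over all tested genes, adjusted by Benjamini-Hochberg at 0.05, with moderated SE. The number of arrays limits the precision. Simulated data were used to test the fit. The members, lists and tests were chosen with earlier results of these data known.

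Values by array are given for each member that passed, each whose groups did not overlap, the HIF subunits and oxygen sensors, and the member of each role with the smallest p; of a list, for genes that passed or the 2 with the smallest p. Members named beyond these, and the further genes drawn in the plot of further pathway genes, were chosen after their values were seen; 1 list gene is not reported here by name. Same-numbered arrays, which share a slide column, deviated together (r of 0.14, 0.37, 0.26 and 0.30 across genes), all over the 0.1 set for pairing. The reported fit holds no pairing term. A pairing by number cannot be told apart from the slide column, so the replicate block may stand for either. WT4 with KO1 (0.37), WT2 with KO3 (0.31) and WT4 with KO2 (0.12) also passed that level, so the pairing is uncertain, and the fit with the replicate number as a block is given where it changes a call.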

Additional observations from a re-analysis of the deposited data

Results flagged for a closer look

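A sample was far from the others of its group in 4 of 68 groups examined (34 members in 2 groups of 4, by Dixon's criterion at 95%), where chance gives about 1 in 20, or 3.4. Ndrg1 on WT4 was at -0.99, with the other WT arrays at -0.36 to -0.28. P4ha2 on WT4 was at -0.75, with the others at -0.00 to 0.02. On KO4, Vegfa was at 0.12 and the other KO arrays at -0.08 to -0.05. Gapdh read -0.074 on WT2 and between 0.14 and 0.15 on WT1, WT3 and WT4.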

How the results depend on the processing

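Of 707 member differences recomputed over 21 settings, 615 kept their direction and their side of the threshold, 14 lost the call (all Ddit4), 2 gained it (both Ndrg1) and 76 changed sign; 12 of 34 members never changed sign. The differences that changed sign were small in the reported fit (median 0.054), the largest being that of Arnt (0.27). The cause was not tested. Leaving out 1 array at a time gave 83 to 344 genes called in place of 295, 0 to 2 members, 0 to 4 list genes and a member median of 0.040 to 0.10. Signs turned for Hif1a (-0.054 to 0.22), Egln1 (-0.012 to 0.11), Slc16a3 (-0.26 to 0.068), Hk1 (-0.072 to 0.094), Pfkp (-0.018 to 0.15), Aldoc (-0.051 to 0.033), Pgk1 (-0.028 to 0.043), Ldha (-0.041 to 0.039), Pfkfb4 (-0.071 to 0.29) and Pdk1 (-0.024 to 0.15).

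The scanner software's ratios gave 123 genes, 0 members (3 at an unadjusted p under 0.05) and 0 list genes called, with Hif1a -0.038, Egln1 -0.027, Pgk1 -0.021 and Pfkfb4 -0.046. The deposited table gave the same counts, with Hif1a -0.037, Egln1 -0.027, Pgk1 -0.021 and Pfkfb4 -0.047. Median centring gave 0 genes (177 unadjusted), 0 members (1 unadjusted) and 0 list genes, with Hk1 0.024, Aldoa 0.010, Aldoc 0.013 and Gapdh 0.00073. Red alone over 8 arrays gave 1 gene, 0 members (1 unadjusted) and 0 list genes, moved the median of all genes to 0.22 and that of the members to 0.36, and gave Egln1 -0.79, Vegfa 0.36, Ankrd37 -0.60, Slc16a3 0.44, Hk1 0.026, Hk2 0.011, Pfkl 0.50, Pfkp -0.76, Aldoc 0.66, Gapdh 0.017, Pgk1 -0.076, Pgam1 -0.0055 and Eno1 0.038. These values hold the outlying WT1 array. Red signal of Egln1, Pfkp and Ankrd37 was 15047.5, 15818 and 16843 units on WT1. On the arrays other than WT1 and KO1 it was 149 to 235.5, 308 to 385 and 581 to 1088.5. In red without those 2 arrays, Egln1, Pfkp and Ankrd37 gave -0.07, 0.30 and 0.05.

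Red alone without WT1 and KO1, chosen after seeing the data, gave 132 genes, 0 members (4 unadjusted) and 0 list genes, with Hif1a -0.13, Arnt -0.077, Egln1 -0.069, Egln3 -0.033, Vhl -0.042, Gpi1 -0.0091, Pfkl 0.14, Gapdh 0.0094, Pgk1 -0.072 and Pfkfb4 -0.076. Ratios without WT1 and KO1 gave 245 genes, 0 members (6 unadjusted) and 1 list gene, with Pfkl 0.0089, Aldoa 0.00072, Aldoc 0.0084 and Ldha -0.017. Without WT4 and KO3 together, also chosen after seeing the data, 69 genes, 0 members (4 unadjusted) and 0 list genes were called, with Slc16a3 0.19, Hk1 0.10, Hk2 0.061, Pfkp -0.076 and Eno1 0.030.

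A sex term gave 12 genes, 0 members (4 unadjusted) and 0 list genes, with Egln1 -0.17, Slc16a3 0.18, Hk1 0.061, Hk2 0.062, Gapdh 0.057, Pgk1 -0.0046 and Pfkfb4 -0.31; WT2 is the sole array that separates sex from group, so this fit rests on it. Offset 16 gave 1 list gene and Ldha -0.00056. The mean over kept probes gave Pfkp -0.031 and Ldha -0.10, and the filter on all 8 arrays Egln3 -0.078. With the replicate block 554 genes, 2 members (Ndrg1 and Ddit4) and 9 list genes were called, and no other member call changed.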
